A study of Caenorhabditis elegans with 27 samples.

Results

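The mRNAs described here come from 9 Caenorhabditis elegans genes of DNA replication: mcm-2, mcm-3, mcm-4, mcm-5, mcm-6, mcm-7, pcn-1, rnr-1 and rnr-2. They were taken by name, by a rule that uses no measured value but was set with earlier results of these data known, and make up 9 of the 45461 features of the count table. All 9 were found, and all 9 passed the expression limit of a mean of at least 100 normalised counts over the 9 input libraries, which 7418 genes passed. In single libraries they held 1316 to 31226 counts each.

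MCM-2 to MCM-7 are the subunits of the ring-shaped helicase that is loaded onto replication origins in an inactive form and unwinds DNA once S phase begins. PCN-1 is the sliding clamp PCNA, which holds DNA polymerases on the template, and RNR-1 and RNR-2 are the large and small subunits of ribonucleotide reductase, the enzyme that makes deoxynucleotides. In the adult hermaphrodite, somatic cells have stopped dividing, and replication goes on in the mitotic germ cells of the distal gonad. Oocytes store replication mRNAs and proteins for the fast divisions of the embryo, and fertile animals also carry dividing embryos.

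The animals were N2 wild-type young adults fed bacteria that express double-stranded RNA against gld-2 (gld-2(RNAi)) or gld-4 (gld-4(RNAi)), or bacteria with the empty feeding vector (control RNAi). GLD-2 and GLD-4 are cytoplasmic poly(A) polymerases, and the study compared what the loss of each does to mRNA abundance and to the loading of mRNAs onto ribosomes. Poly(A)-enriched RNA was sequenced from the whole worm lysate (input) and from the polysomal (P) and non-polysomal (NP) parts of sucrose gradients, with 3 libraries of each fraction and RNAi, 27 in all. According to the study, gld-2(RNAi) animals were sterile and gld-4(RNAi) animals were fertile, and animals with compromised gld-2 lacked the embryos of the wild type.

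Whole worms hold germ cells, soma and, in fertile animals, embryos together, so fewer cells of a type and less RNA per cell cannot be told apart. The study reports shorter bulk poly(A) tails in gld-2(RNAi), and these libraries were made from poly(A)-enriched RNA. Whether shorter tails changed the capture of any mRNA was not tested here. By RT-qPCR with random primers, the study found most of the down-regulated genes it chose reduced in gld-2 mutants. The libraries had 12160686 to 18132556 counts in input, 13511707 to 16209864 in P and 12897230 to 18099996 in NP. The mRNA of gld-2 was 11.3-fold lower in gld-2(RNAi) than in control RNAi input (log2 -3.50 ± 0.39 SE, adjusted p = 8.10e-04), and that of gld-4 was 10.6-fold lower in gld-4(RNAi) (log2 -3.40 ± 0.33, adjusted p = 0.009). In several groups the library numbered 1 stood apart from those numbered 2 and 3: in gld-2(RNAi) P, replicate 1 was the lowest of the 3 libraries for 8 of 9 genes, and in gld-4(RNAi) input for 9 of 9. This was not so in every group. In control RNAi NP replicate 1 was lowest for 2 genes and highest for 2, and in gld-2(RNAi) NP lowest for 3 and highest for 6. The counts of members that pass the adjusted p are therefore also given without replicate 1 of any group, a choice made after seeing the data that leaves 2 libraries a group. Nothing in the labels says what the replicate number stands for, and p-values measure the spread between these libraries.

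Levels per gene are given as normalised CPM, the counts of a gene scaled to a common library depth over all 27 libraries. To compare levels between genes they were divided by exon length. On that scale, the control RNAi input held most rnr-2 (809 ± 18.6 CPM per kilobase, SD, n = 3) and pcn-1 (769 ± 124), whose library ranges overlapped, and then mcm-7 (336 ± 53.0), which lay below every library of pcn-1. The other 6 mRNAs followed from rnr-1 (172 ± 27.3) down to mcm-4 (104 ± 4.62). Of these, only mcm-4 was separated from its neighbour in the order, mcm-5 (140 ± 9.28). The order in gld-4(RNAi) input began with pcn-1 (1213 ± 228 CPM per kilobase) and then rnr-2 (786 ± 190) and mcm-7 (363 ± 80.1), each apart from the next. In gld-2(RNAi) input, pcn-1 (537 ± 196) again came first, and rnr-2 took the fourth place (186 ± 9.61), at a level that overlapped those of mcm-2 (198 ± 48.3) and rnr-1 (186 ± 56.2). Thus rnr-2, which shared the top of the order with pcn-1 in control RNAi input, overlapped mcm-2 and rnr-1 in gld-2(RNAi) input.

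**Figure D1:**
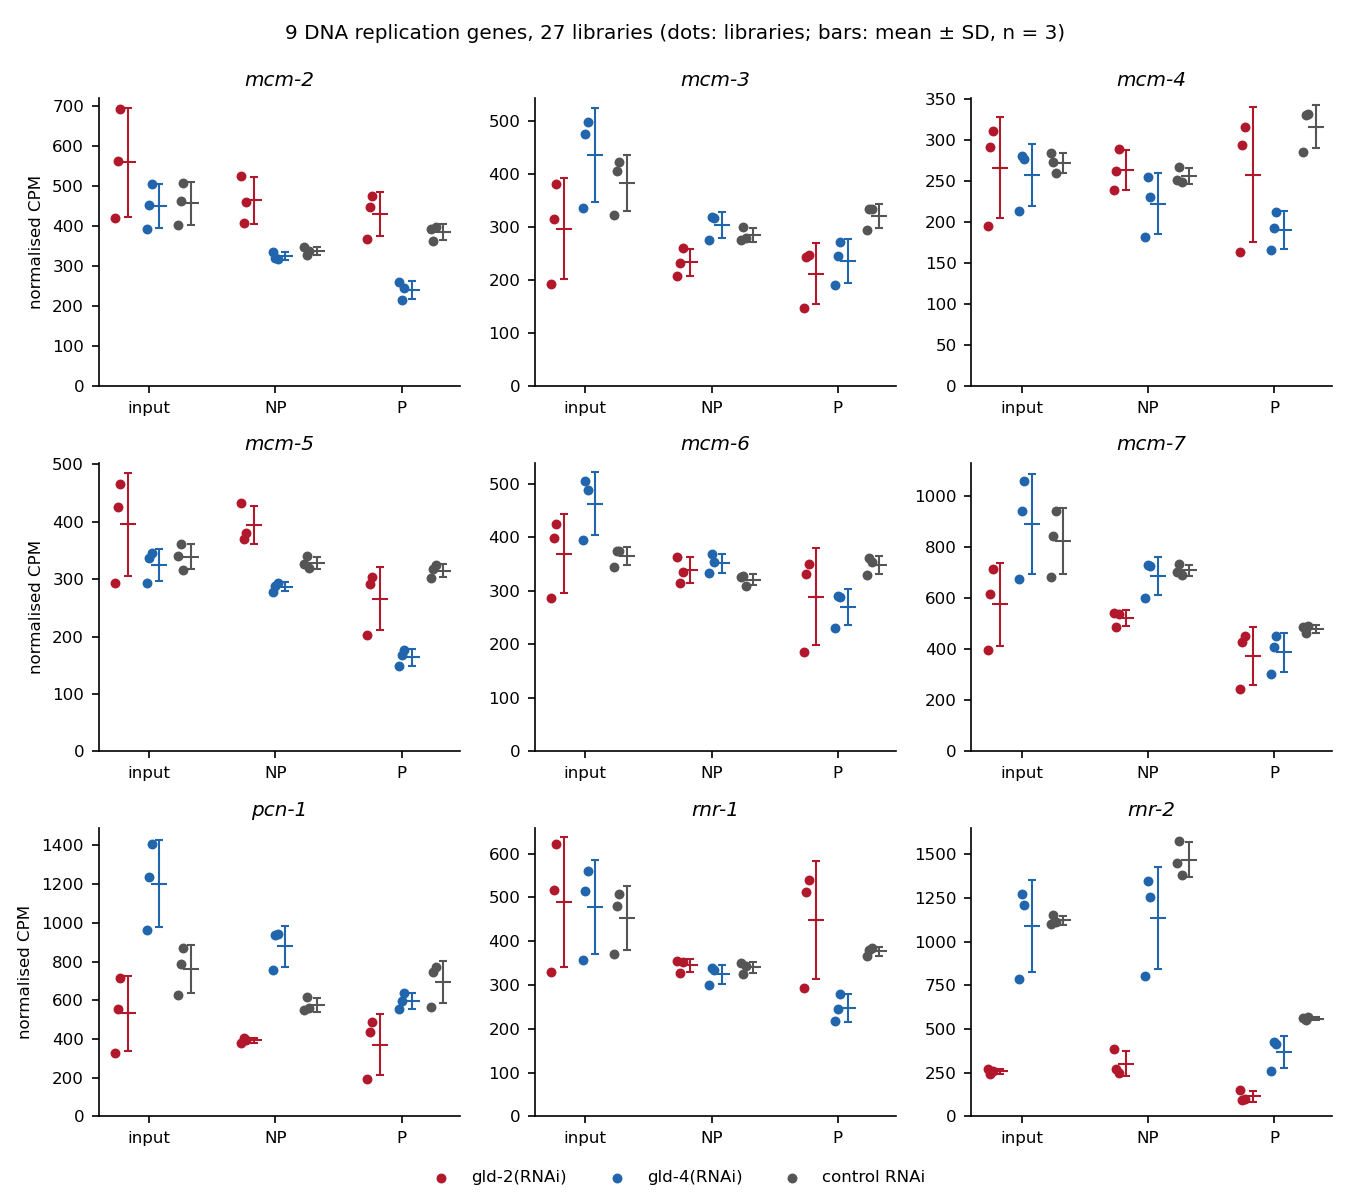
Normalised CPM (y axes, each from 0) of the 9 genes by fraction (input, NP, P), in libraries of gld-2(RNAi) (red), gld-4(RNAi) (blue) and control RNAi (grey). Dots are single libraries and bars are the mean ± SD of 3. In gld-2(RNAi), rnr-2 lies between 91.9 and 386 CPM in every fraction, below all gld-4(RNAi) and control libraries of the same fraction, the lowest of which are at 788 in input, 805 in NP and 260 in P.

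Ribonucleotide reductase showed the largest change among the 9 genes. Its small subunit mRNA rnr-2 had 271, 245 and 258 CPM in the gld-2(RNAi) input, against 1101, 1150 and 1113 CPM in control RNAi. The gld-4(RNAi) input held 788, 1275 and 1207 CPM of rnr-2. All gld-2(RNAi) libraries lay far below the others, and the gld-4(RNAi) libraries lay on both sides of the control. In the edgeR fit (quasi-likelihood test, p-values adjusted by Benjamini-Hochberg over all tested genes, ± SE), rnr-2 was 4.19-fold lower in gld-2(RNAi) than in control RNAi (log2 -2.07 ± 0.11, adjusted p = 1.91e-04). It did not pass in gld-4(RNAi) against control (log2 -0.02 ± 0.19, adjusted p = 0.944), and gld-2(RNAi) was lower than gld-4(RNAi) by the direct test (log2 -2.08 ± 0.22, adjusted p = 4.26e-04). The comparisons of gld-2(RNAi) and of gld-4(RNAi) with control use the same control libraries, here and in the other fractions. A gene counts here as called when its adjusted p is at most 0.05 and it differs at least 2-fold. By that rule rnr-2 was the only member called in gld-2(RNAi) input, where 12.2% of all 7418 genes were called lower and 8.22% higher. A share of 1 in 9 is thus close to the background, and the input values say something of rnr-2 rather than of the 9 genes as a group.

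The deficit of rnr-2 mRNA in gld-2(RNAi) was about as large in both parts of the gradient. NP libraries had 386, 271 and 250 CPM in gld-2(RNAi), against 1452, 1575 and 1378 CPM in control RNAi (log2 -2.28 ± 0.20, adjusted p = 1.94e-04). P libraries had 153, 91.9 and 99.7 CPM in gld-2(RNAi), against 561, 550 and 568 CPM in control RNAi (log2 -2.27 ± 0.20, adjusted p = 0.00119). The groups do not overlap in either fraction, and rnr-2 was again the only member called, with 11.3% of all genes called lower in NP and 8.68% in P. In input, NP and P alike, rnr-2 stayed called in each of the 6 fits that left out 1 library.

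The large subunit mRNA rnr-1 took another course. It had 329, 518 and 621 CPM in gld-2(RNAi) input, against 371, 481 and 507 CPM in control RNAi. The groups overlap, and no difference passed the test (log2 0.16 ± 0.25, adjusted p = 0.619). In P, rnr-1 had 294, 512 and 540 CPM in gld-2(RNAi), against 366, 381 and 385 CPM in control RNAi (log2 0.27 ± 0.25, adjusted p = 0.419). Here replicate 1 lay below the control and replicates 2 and 3 above it. Without replicate 1 of any group, the rnr-1 difference in P was 0.45 ± 0.07 (adjusted p = 2.39e-05).

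A ratio of the 2 subunits within a library needs no scaling between libraries. The input held 0.826, 0.473 and 0.416 counts of rnr-2 per count of rnr-1 in gld-2(RNAi), against 2.97, 2.39 and 2.19 in control RNAi. In gld-4(RNAi) input the ratio was 2.20, 2.48 and 2.15. The ratio was thus below 1 in all gld-2(RNAi) input libraries and above 2 in all others, a 4.58-fold difference between gld-2(RNAi) and control (log2 -2.19, SE 0.33, exact two-sided permutation test over 3 against 3 libraries, p = 0.10, the smallest this design allows). In NP the ratio was 5.02-fold lower in gld-2(RNAi) than in control RNAi and in P 5.74-fold lower, with p = 0.10 in both by the same exact test. Replicate 1 of gld-2(RNAi) had the highest ratio of its group in each fraction, in P 0.521 beside 0.179 and 0.184. In gld-4(RNAi) against control the log2 difference was -0.14 in input, -0.34 in NP and -0.03 in P (exact permutation p = 0.60, 0.10 and 0.90).

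**Figure D2:**
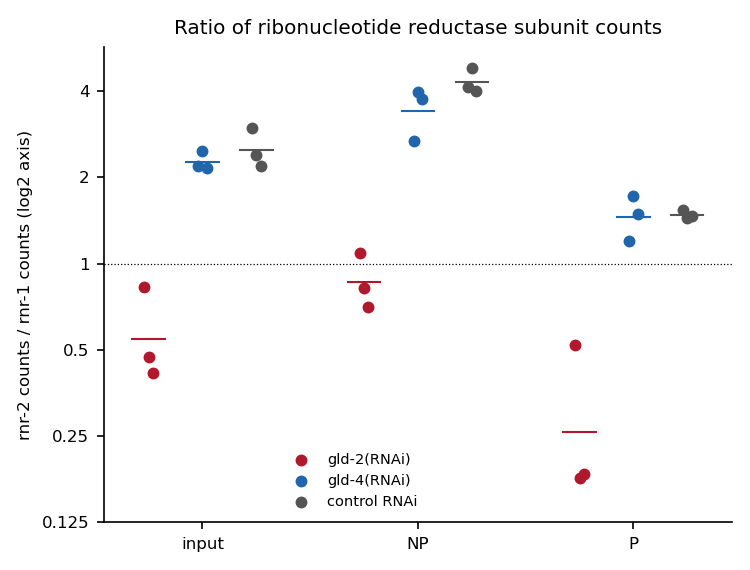
Counts of rnr-2 divided by counts of rnr-1 in each library (y axis, log2 scale), for gld-2(RNAi) (red), gld-4(RNAi) (blue) and control RNAi (grey) in input, NP and P. Dots are libraries, lines are geometric means of 3, and the dotted line marks equal counts. All gld-2(RNAi) libraries lie between 0.179 and 1.09, and all other libraries between 1.2 and 4.84.

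The 2 subunits also differed in where their mRNAs lay on the gradient. A gradient here stands for the P and NP libraries of the same replicate number, a pairing that the labels do not state. In control RNAi, log2 P/NP of rnr-2 was -1.37, -1.52 and -1.28 in the 3 gradients, while that of rnr-1 was 0.06, 0.23 and 0.16. In gld-2(RNAi) rnr-2 had -1.34, -1.56 and -1.33, and in gld-4(RNAi) -1.63, -1.66 and -1.60. As a level relative to each fraction, rnr-2 was thus lower in P than in NP in every gradient, about as much in gld-2(RNAi) as in control. The fitted P over NP difference of rnr-2 was -1.29 ± 0.11 in control RNAi (adjusted p = 9.36e-05), -1.31 ± 0.24 in gld-2(RNAi) (adjusted p = 0.00466) and -1.51 ± 0.31 in gld-4(RNAi) (adjusted p = 0.00827). It was the only member called in each, beside 14.4% of all genes called lower in P in control RNAi, 13.1% in gld-2(RNAi) and 11.9% in gld-4(RNAi). The call was lost without replicate 2 of gld-2(RNAi) (log2 -1.24), and without replicate 2 (-1.56) or replicate 3 (-1.62) of gld-4(RNAi), in fits of 2 gradients whose adjusted p lay between 0.0534 and 0.0692. With the pairing by replicate number as a block the adjusted p was 4.79e-07 in gld-2(RNAi) and 4.01e-05 in gld-4(RNAi). The change of P/NP itself was -0.05 ± 0.28 in gld-2(RNAi) against control (adjusted p = 0.939) and -0.24 ± 0.33 in gld-4(RNAi) (adjusted p = 0.987).

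The clamp mRNA pcn-1 moved apart in the 2 RNAi conditions. Its input levels were 328, 554 and 714 CPM in gld-2(RNAi), 961, 1238 and 1408 CPM in gld-4(RNAi), and 628, 787 and 870 CPM in control RNAi. All gld-4(RNAi) libraries lay above all control libraries, and the gld-2(RNAi) libraries spread from below the control into its range. Set directly against gld-4(RNAi), pcn-1 was 2.26-fold lower in gld-2(RNAi) (log2 -1.18 ± 0.30, adjusted p = 0.017), and with rnr-2 it was 1 of 2 members called lower, beside 14.7% of all genes. The call of pcn-1 is not a firm one, since it held in 2 of the 6 fits that left out 1 library: it was lost on the fold limit without replicate 1 of gld-2(RNAi) (log2 -0.92), and on the adjusted p without replicate 2 of gld-2(RNAi) (-1.21) or without replicate 2 (-1.15) or 3 (-1.04) of gld-4(RNAi). Without replicate 1 of any group it was -1.08 ± 0.15 (adjusted p = 1.43e-05).

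Against control, pcn-1 did not reach the 2-fold limit in either RNAi. In gld-4(RNAi) input the difference was 0.68 ± 0.18 with an adjusted p of 0.0551, which became 0.00136 with the replicate block (log2 0.67). No member was called in gld-4(RNAi) input, where 0.391% of all genes were called higher and 0.984% lower. In gld-4(RNAi) NP, pcn-1 had 757, 938 and 942 CPM, against 551, 615 and 561 CPM in control RNAi (log2 0.59 ± 0.13, adjusted p = 0.0228), so that it passed the adjusted p but not the fold limit. It did so in 1 of the 6 fits that left out 1 library, where the adjusted p ran from 0.00801 to 0.0864. In gld-4(RNAi) P it had 554, 595 and 638 CPM, against 567, 745 and 770 CPM in control RNAi (log2 -0.26 ± 0.17, adjusted p = 0.428). The excess over control seen in input and NP was therefore not seen in P.

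In gld-2(RNAi) NP, pcn-1 had 378, 403 and 397 CPM, against 551, 615 and 561 CPM in control RNAi (log2 -0.55 ± 0.10, adjusted p = 0.00323). These are 2 tight groups that do not overlap, at less than a 2-fold distance. P libraries held 193, 434 and 487 CPM of pcn-1 in gld-2(RNAi), against 567, 745 and 770 CPM in control RNAi (log2 -0.89 ± 0.37, adjusted p = 0.108, and 0.00589 with the replicate block). In gld-2(RNAi) input the difference was -0.47 ± 0.28 (adjusted p = 0.215, and 0.00787 with the block).

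The 6 helicase subunit mRNAs kept within 2-fold of control in all fractions, yet in gld-2(RNAi) they did not move together. In NP, where libraries of a group lay closest, mcm-2 had 525, 407 and 461 CPM in gld-2(RNAi), against 349, 327 and 338 CPM in control RNAi (log2 0.46 ± 0.11, adjusted p = 0.0117). The mcm-7 mRNA had 542, 486 and 536 CPM in gld-2(RNAi), against 702, 733 and 691 CPM in control RNAi (log2 -0.44 ± 0.10, adjusted p = 0.0112). Both pairs of groups are fully separated, in opposite directions. With the adjusted p alone as criterion, mcm-2 and mcm-5 (log2 0.26 ± 0.09, adjusted p = 0.0354) were higher in gld-2(RNAi) NP, and mcm-7, pcn-1 and rnr-2 were lower. Leaving out any 1 library kept mcm-2, mcm-7, pcn-1 and rnr-2 past the adjusted p, while mcm-5 passed in 0 of those 6 fits (0.054 to 0.158). These are 2 and 3 of 9, where 27.6% of all genes passed higher and 30.2% lower. The mcm-3 mRNA, at 209, 232 and 261 CPM in gld-2(RNAi) NP against 277, 301 and 280 CPM in control RNAi, missed the limit (log2 -0.29 ± 0.10, adjusted p = 0.0537, and 0.0248 with the block).

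The gld-2(RNAi) input libraries spread more widely, and there no mcm gene passed. The mcm-7 mRNA had 397, 614 and 713 CPM in gld-2(RNAi) input, against 683, 844 and 940 CPM in control RNAi (log2 -0.46 ± 0.23, adjusted p = 0.146). The mcm-2 mRNA had 421, 564 and 694 CPM in gld-2(RNAi), against 402, 462 and 508 CPM in control RNAi (log2 0.34 ± 0.20, adjusted p = 0.195). Fold changes of mcm-3 and mcm-5 were -0.32 ± 0.25 and 0.27 ± 0.18 on the log2 scale. The groups overlap for all 6. With the replicate block, 1 member (mcm-2, adjusted p = 0.0185) passed the adjusted p higher and 4 passed lower: mcm-3 (0.026), mcm-7 (0.0034), pcn-1 and rnr-2. Under that block 32.0% of all genes passed higher and 32.2% lower. Without replicate 1 of any group, mcm-2 (log2 0.42 ± 0.14, adjusted p = 0.00591) and mcm-5 (0.44 ± 0.13, 0.0018) passed higher in gld-2(RNAi) input, and mcm-7 (-0.38 ± 0.15, 0.0211), pcn-1 (-0.34 ± 0.15, 0.0395) and rnr-2 passed lower, where 33.5% of all genes passed higher and 35.8% lower.

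Shares within the mcm pool do not depend on scaling between libraries. Of the summed CPM per kilobase of the 6 genes in input, mcm-7 made up 23.5, 24.8 and 25.2% in gld-2(RNAi), against 30.2, 32.5 and 35.0% in control RNAi. The share of mcm-2 was 21.6, 19.8 and 21.3% in gld-2(RNAi), against 15.4, 15.4 and 16.4% in control RNAi. For both genes the 3 gld-2(RNAi) libraries are apart from the 3 control libraries, also at replicate 1, and the same holds in NP, where mcm-7 averaged 24.8 ± 0.146% in gld-2(RNAi) and 33.1 ± 0.246% in control RNAi (SD, n = 3). In gld-4(RNAi) input, mcm-7 averaged 32.9 ± 2.13% and mcm-2 14.6 ± 0.902%, which overlap the control. In P the gap of mcm-7 was much smaller, with 19.8, 22.2 and 22.3% in gld-2(RNAi), against 24.5, 22.5 and 23.2% in control RNAi. In gld-4(RNAi) P it made up 24.8, 28.3 and 28.9%, above the control. Input shares in gld-2(RNAi) and control were also apart for mcm-5 (mean 17.2 against 13.8%) and mcm-3 (11.5 against 13.9%). P shares were apart as well for mcm-2, with 25.9, 20.2 and 20.4% in gld-2(RNAi), against 17.2, 15.3 and 16.4% in control RNAi. The same held for mcm-3 in P (mean 11.2 against 14.3%). The pool thus had a different make-up in gld-2(RNAi), with more of mcm-2 among these subunits in input, NP and P. The lower share of mcm-7 was clearest in input and NP. A share of 1 gene also moves with those of the other 5. These shares are given as a description and were not tested.

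**Figure D3:**
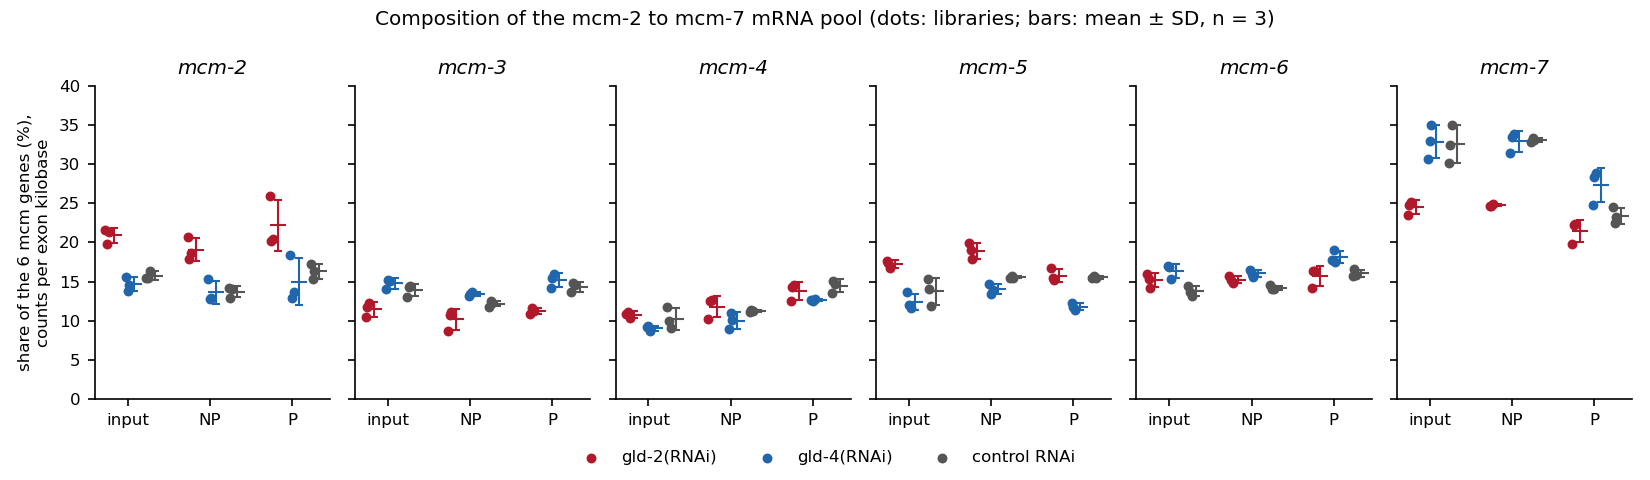
Share of each gene in the summed normalised counts per exon kilobase of mcm-2 to mcm-7 (y axis, percent, from 0), by fraction, for gld-2(RNAi) (red), gld-4(RNAi) (blue) and control RNAi (grey). Dots are libraries and bars are the mean ± SD of 3. In input, mcm-7 averages 24.5% in gld-2(RNAi) and 32.6% in control RNAi, and mcm-2 averages 20.9% in gld-2(RNAi) and 15.7% in control RNAi.

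In P of gld-2(RNAi), the mcm differences were 0.18 ± 0.13 for mcm-2, -0.58 ± 0.23 for mcm-3, -0.22 ± 0.18 for mcm-5 and -0.34 ± 0.25 for mcm-7 on the log2 scale, and none passed. The mcm-3 mRNA had 147, 244 and 248 CPM in gld-2(RNAi) P, against 295, 334 and 335 CPM in control RNAi, 2 groups apart from each other, and its adjusted p was 0.0944, or 0.00655 with the replicate block. Without replicate 1 of any group, mcm-2 (0.27 ± 0.07, adjusted p = 0.00358) and rnr-1 passed higher in gld-2(RNAi) P, and mcm-3 (-0.45 ± 0.06, 1.00e-05), pcn-1 (-0.72 ± 0.08, 3.59e-07) and rnr-2 passed lower, where 37% of all genes passed higher and 38.2% lower.

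Among the comparisons of RNAi conditions within a fraction, the 9 genes shared a direction in 1, that of P libraries of gld-4(RNAi) with control. All 9 were lower, with a median log2 difference of -0.64, where the median over all 7418 genes was 0.02. The mcm-5 mRNA had 148, 168 and 176 CPM in gld-4(RNAi) P, against 302, 318 and 324 CPM in control RNAi (log2 -0.97 ± 0.11, adjusted p = 0.0334). This is the largest of the 9 differences and just short of 2-fold. The mcm-4 mRNA had 166, 193 and 212 CPM in gld-4(RNAi) P, against 286, 331 and 332 CPM in control RNAi (log2 -0.77 ± 0.14, adjusted p = 0.0482). The mcm-2 mRNA had 260, 215 and 246 CPM in gld-4(RNAi) P, against 394, 362 and 399 CPM in control RNAi (log2 -0.72 ± 0.10, adjusted p = 0.0379). In all 3 cases every gld-4(RNAi) library lay below every control library.

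These 3 genes passed the adjusted p in gld-4(RNAi) P, where 2.68% of all genes passed lower, and none of the 9 was called, where 0.243% of all genes were called lower. For rnr-1, P libraries had 217, 246 and 279 CPM in gld-4(RNAi), against 366, 381 and 385 CPM in control RNAi (log2 -0.64 ± 0.13, adjusted p = 0.0519). For rnr-2, they had 260, 425 and 416 CPM in gld-4(RNAi), against 561, 550 and 568 CPM in control RNAi (log2 -0.64 ± 0.21, adjusted p = 0.142). Neither passed, although the groups do not overlap. The differences of mcm-3 (-0.48 ± 0.16), mcm-6 (-0.40 ± 0.13), mcm-7 (-0.34 ± 0.17) and pcn-1 (-0.26 ± 0.17) were smaller. Library ranges of gld-4(RNAi) and control did not overlap for 8 of the 9 genes, all but pcn-1, where 15.3% of all genes lay apart in this direction.

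With the replicate block, 7 of 9 passed the adjusted p in gld-4(RNAi) P (all but mcm-7 and pcn-1), beside 12.2% of all genes. Without replicate 1 of any group 9 of 9 passed, beside 25.6% of all genes. The p-values were less steady: mcm-2, mcm-4 and mcm-5 each passed in 1 of the 6 fits that left out 1 library, the one without gld-4(RNAi) replicate 1. In that fit rnr-1 and rnr-2 passed too, so that 5 of 9 passed lower, beside 681 of 7418 genes. In the other 5 fits no member passed and at most 1 of all genes did, with adjusted p up to 0.205 for mcm-5. Size and sign were steadier, at -1.03 to -0.90 for mcm-5 over those 6 fits. With scaling to library size alone 0 of 9 passed, beside 16 of 7418 genes lower, and the median of the 9 was -0.54 where that of all genes was 0.09. Sums of 2 lists of germline markers were not lower in these libraries: in P, the summed CPM of 12 genes of the mitotic and early meiotic germline was 1380 to 1798 in gld-4(RNAi) and 1108 to 1700 in control RNAi, that of 16 oocyte and eggshell genes 11437 to 12235 in gld-4(RNAi) and 9394 to 10843 in control RNAi, and none of these was called. The 78 sperm genes summed to 888 to 9055 CPM in gld-4(RNAi) P and 688 to 3191 in control RNAi, and 52 of the 54 expressed ones had a positive difference (median log2 1.24), with none called. The part of these markers in the P values of the 9 genes was not tested.

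The same mRNAs were not lower in gld-4(RNAi) as a whole. In input their median log2 difference was 0.10, beside 0.03 over all genes, and none passed. The mcm-6 mRNA had 395, 505 and 488 CPM in gld-4(RNAi) input, against 345, 375 and 374 CPM in control RNAi (log2 0.36 ± 0.13, adjusted p = 0.104, and 0.0152 with the replicate block), and mcm-3 differed by 0.20 ± 0.18. In NP the median of the 9 was -0.08 and pcn-1 was the 1 member past the adjusted p, beside 9.68% of all genes higher. The NP difference of mcm-5 was -0.22 ± 0.07 (adjusted p = 0.0626, and 0.0498 with the block), that of rnr-2 -0.39 ± 0.22 (adjusted p = 0.221, and 0.0391 with the block), and that of mcm-6 0.11 ± 0.08. No member was called in NP of gld-4(RNAi), where 0.876% of all genes were called higher and 0.566% lower.

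P/NP ratios put both fractions of a gradient together, so they rest in part on the P values just given, and all 9 were lower in gld-4(RNAi) than in control RNAi. In the 3 gradients, log2 P/NP of pcn-1 was -0.45, -0.66 and -0.56 in gld-4(RNAi), against 0.04, 0.28 and 0.46 in control RNAi. For mcm-5 it was -0.91, -0.77 and -0.74 in gld-4(RNAi), against -0.11, -0.10 and 0.02 in control RNAi. For mcm-2 it was -0.37, -0.57 and -0.37 in gld-4(RNAi), against 0.18, 0.14 and 0.24 in control RNAi. For these genes P/NP was thus shifted towards NP in gld-4(RNAi) relative to control RNAi. Where the zero of this scale lies depends on the scaling, so the ratios do not give the absolute spread of an mRNA. With library size alone, the median P over NP of the 9 in control RNAi was -0.11. The gradients of gld-4(RNAi) lay below those of control for 9 of 9 genes, where 12.3% of all genes lay apart in this direction.

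The test of the change itself was less clear. The fitted change of P/NP in gld-4(RNAi) against control was -0.84 ± 0.22 for pcn-1 (adjusted p = 0.15), -0.75 ± 0.14 for mcm-5 (0.0834) and -0.64 ± 0.12 for mcm-2 (0.0834). It was -0.55 ± 0.17 for rnr-1, -0.54 ± 0.21 for mcm-3, -0.54 ± 0.21 for mcm-4, -0.50 ± 0.17 for mcm-6, -0.26 ± 0.23 for mcm-7 and -0.24 ± 0.33 for rnr-2. The median of the 9 was -0.54 and that of all genes 0.02. None of the 9 passed the adjusted p, as 0.0270% of all genes did in this direction (2 genes), although 845 genes had an unadjusted p under 0.05, and 7 of the 9 members had one. With the gradient as replicate block, pcn-1, mcm-2 and mcm-5 passed (each with adjusted p = 0.0431), beside 0.863% of all genes. DESeq2 passed 5 of the 9, beside 2.02% of all genes, and without replicate 1 of any group 7 passed, beside 6.13% of all genes. With scaling to library size alone 0 passed, as did 0 of all 7418 genes, and the median of the 9 was -0.44 where that of all genes was 0.12. The direction of the median was thus the same under these settings, and the number of members that passed ran from 0 to 7.

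**Figure D4:**
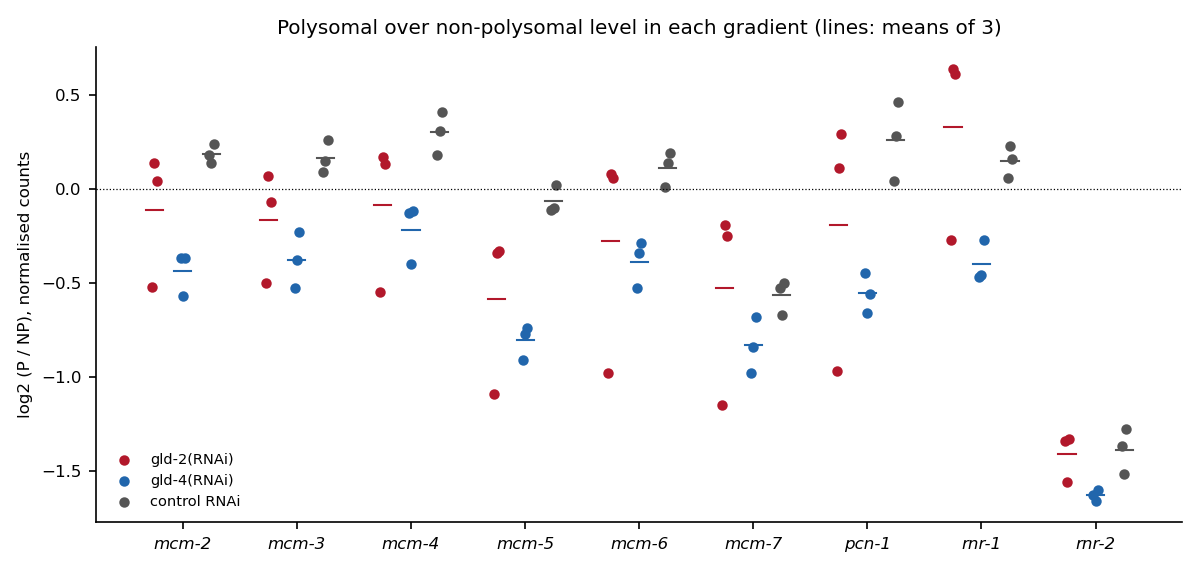
Log2 ratio of normalised counts in P to those in NP (y axis) for each gradient, by gene, for gld-2(RNAi) (red), gld-4(RNAi) (blue) and control RNAi (grey). Dots are gradients (P and NP libraries paired by replicate number), lines are means of 3 and the dotted line marks equal levels. The gld-4(RNAi) gradients lie below the control gradients for every gene, and rnr-2 lies between -1.66 and -1.28 in all 9 gradients.

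In gld-2(RNAi) the median P/NP change rested largely on 1 gradient. For mcm-5, log2 P/NP was -1.09, -0.34 and -0.33 in gld-2(RNAi), against -0.11, -0.10 and 0.02 in control RNAi (fitted change -0.55 ± 0.20, adjusted p = 0.132, and 0.0347 with the replicate block). For mcm-2 the fitted change was -0.34 ± 0.16 (adjusted p = 0.247). Gradient 1 had the lowest P/NP of the 3 for 8 of the 9 genes, all but rnr-2. For mcm-2, mcm-3, mcm-4 and mcm-5 every gld-2(RNAi) gradient still lay below every control gradient. The margin was narrow for mcm-3 (0.07 against 0.09) and mcm-4 (0.17 against 0.18). How many of all genes lay apart in this way is not given here. Over the 9 genes the median change was -0.35 (all genes -0.14), and without replicate 1 of any group it was -0.05 (all genes 0.01). None of the 9 passed the adjusted p in gld-2(RNAi), where 2.95% of all genes passed higher and 3.64% lower. Without replicate 1 of any group, mcm-7 (0.42 ± 0.12, adjusted p = 0.00568) and rnr-1 (0.49 ± 0.11, 0.00119) passed higher, beside 20.4% of all genes.

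In control RNAi the members other than rnr-2 stayed within 2-fold between fractions. The mcm-7 mRNA was lower in P in every control gradient (-0.53, -0.67 and -0.50, fitted P over NP -0.46 ± 0.08, adjusted p = 0.0026, past the limit in 2 of 3 fits without 1 gradient). For mcm-4 (0.41 ± 0.10, adjusted p = 0.00913, past the limit in 1 of those 3 fits) the P fraction was the richer one. For pcn-1 the fitted value was 0.38 ± 0.16 (adjusted p = 0.0669, and 0.00718 with the replicate block). The helicase subunits are thus not alike in this respect either, although P over NP shifts with the scaling: with library size alone the median over all genes was -0.31 in control RNAi, where with TMM it was 0.05. In gld-4(RNAi) the fitted P over NP was -0.70 ± 0.21 for mcm-7, -0.69 ± 0.12 for mcm-5 and -0.33 ± 0.10 for mcm-2, and in gld-2(RNAi) it was -0.47 ± 0.18 for mcm-5 and 0.47 ± 0.25 for rnr-1.

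Other replication genes were counted from a list of 38 names, of which 36 were matched and 34 were expressed. In gld-2(RNAi) input 7 of these 34 were called lower and 1 higher, beside the 12.2% and 8.22% of all genes. The lower ones include orc-1, the largest subunit of the origin recognition complex (log2 -2.19 ± 0.13), gmn-1, the licensing inhibitor geminin (-1.70 ± 0.16), psf-3, a subunit of the GINS complex (-1.66 ± 0.12), and cdt-1, which helps to load the helicase (-1.61 ± 0.13). Smaller differences were called for pri-2, the large primase subunit (-1.15 ± 0.12), and the 1 gene called higher was rfc-1, the large subunit of the clamp loader (1.13 ± 0.22). Adjusted p-values of these 6 genes ran from 1.97e-04 to 0.00619. Other genes of the same steps were not called, among them orc-2 (0.13 ± 0.19), orc-3 (0.47 ± 0.16), cdc-6 (-0.28 ± 0.25) and psf-1 (-0.08 ± 0.11), which were picked after their values were seen. Against gld-4(RNAi), 8 of the 34 were called lower and 1 higher in gld-2(RNAi) input, beside 14.7% of all genes lower and 9.15% higher, led by orc-1 (-2.25 ± 0.13), psf-3 (-1.93 ± 0.16), cdt-1 (-1.71 ± 0.17), gmn-1 (-1.56 ± 0.22), top-2, a DNA topoisomerase II (-1.35 ± 0.18), and dna-2, a nuclease and helicase of Okazaki fragment processing (-1.29 ± 0.14).

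In gld-2(RNAi) NP 5 of the 34 were called lower and none higher, beside 11.3% and 8.87% of all genes, with orc-1 (-2.07 ± 0.15), psf-3 (-1.81 ± 0.08) and cdt-1 (-1.67 ± 0.13) the largest. In gld-2(RNAi) P 6 were called lower and none higher, beside 8.68% and 5.42% of all genes, with orc-1 (-1.63 ± 0.10), cdt-1 (-1.59 ± 0.18) and gmn-1 (-1.43 ± 0.20) the largest. In gld-4(RNAi) none of the 34 was called in input, NP or P, and the 3 largest input differences were those of orc-3 (-0.69 ± 0.27), rfc-2 (-0.62 ± 0.18) and pri-2 (-0.60 ± 0.18). Yet 32 of 34 were lower in gld-4(RNAi) P than in control RNAi (median log2 -0.28) and 7 passed the adjusted p, all lower, beside 2.68% of all genes, among them gmn-1 (-0.94 ± 0.14), dut-1, the dUTPase (-0.88 ± 0.14), and orc-3, another origin recognition subunit (-0.85 ± 0.15). Of their P/NP changes in gld-4(RNAi), 30 of 34 were negative (median -0.25) and none passed, beside 0.0270% of all genes lower, the largest being those of rpa-2, a subunit of the single-strand binding protein (-0.79, adjusted p = 0.0818), and crn-1, the flap endonuclease (-0.57), followed by tyms-1, pole-2 and pold-1 at -0.53 each. In gld-2(RNAi) 25 of 34 changes were negative and 5 passed the adjusted p, 4 of them lower, beside 3.64% of all genes lower and 2.95% higher. In P of gld-4(RNAi) most of these genes thus lay on the same side as the 9, at a smaller median.

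In control RNAi, 5 of the 34 were called lower in P than in NP and 2 higher, beside 14.4% of all genes lower and 18% higher, so that the lower share is near that of all genes. The largest were those of orc-1 (-1.93 ± 0.08), orc-5 (-1.55 ± 0.07) and cdc-7, the kinase that fires origins (-1.27 ± 0.08). The same 3 genes had the largest values in gld-2(RNAi), where 5 were called lower beside 13.1% of all genes, and in gld-4(RNAi), where 7 were beside 11.9%. These comparisons share no library between RNAi conditions.

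Over the 9 group means of log2 CPM, the 5 genes with a course most like that of rnr-2 were tam-1 (Pearson r = 0.994), rabn-5 (0.993), R01H10.7 (0.992), W02F12.3 (0.991) and B0393.6 (0.99). Among the members, mcm-7 (r = 0.841), pcn-1 (0.791) and mcm-3 (0.756) were closest to rnr-2, and rnr-1 was at -0.062. Most like the mean of mcm-2 to mcm-7 were mop-25.3 (0.952), sap-49 (0.947), ztf-7 (0.934), div-1, the B subunit of polymerase alpha (0.922), and npp-4 (0.921). Over the 27 libraries, log2 CPM of pairs of the 6 mcm genes correlated at 0.35 to 0.88 (median 0.59), and rnr-2 correlated with the other 8 at -0.20 to 0.74. These are descriptions over points that share fractions, RNAi groups and sequencing depth.

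In the other comparisons, too, the members that passed the adjusted p differed once replicate 1 of every group was left out. In gld-4(RNAi) input mcm-3, mcm-6 and pcn-1 then passed higher, beside 22.2% of all genes, where none had passed over all libraries. In gld-2(RNAi) against gld-4(RNAi) input mcm-2 and mcm-5 passed higher, beside 34.6% of all genes, and all but mcm-4 and rnr-1 of the others passed lower, beside 36%. In gld-2(RNAi) NP mcm-2 passed higher, beside 38.6% of all genes, and mcm-3, mcm-7, pcn-1 and rnr-2 lower, beside 39.0%, while mcm-5 no longer passed. In gld-4(RNAi) NP pcn-1 passed higher, beside 21.4% of all genes, and mcm-5 lower, beside 25.1%. Between P and NP, 6 members passed higher and 2 lower in control RNAi, beside 42.1% and 41.3% of all genes. In gld-2(RNAi) 3 passed higher and 2 lower between P and NP, beside 39.9% and 42.4%, and in gld-4(RNAi) 9 of 9 passed lower, beside 41.7%. These counts are for the adjusted p alone, with no limit on the fold.

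Markers of tissue moved with gld-2(RNAi). In input, summed CPM of 12 genes of the mitotic and early meiotic germline was 925 to 1041 in gld-2(RNAi), 3366 to 3619 in gld-4(RNAi) and 2734 to 3218 in control RNAi, and 7 of the 12 were called lower in gld-2(RNAi) against control. Most of the 12 did not share the higher sum of gld-4(RNAi): 8 were lower and 4 higher than in control RNAi (median log2 -0.17). For 16 oocyte and eggshell genes the sum was 4832 to 7659 in gld-2(RNAi), 20462 to 28466 in gld-4(RNAi) and 13862 to 18423 in control RNAi, with 9 of 16 called lower in gld-2(RNAi). The 78 sperm genes summed to 4670 to 11053 in gld-2(RNAi), 712 to 3783 in gld-4(RNAi) and 536 to 1732 in control RNAi, and 52 of the 54 expressed ones were called higher in gld-2(RNAi). None of 10 body wall muscle genes and none of 9 expressed intestine genes was called in either RNAi against control input, and both sums overlapped between the groups. Of 13 early embryo genes 2 were at 0 in all gld-2(RNAi) input libraries, 1 in gld-4(RNAi) and none in control RNAi, and their sum was 8.55 to 14.1 CPM in gld-2(RNAi), 11.4 to 38.3 in gld-4(RNAi) and 34.0 to 48.4 in control RNAi, so that the gld-2(RNAi) libraries lay below the control. Each group of libraries thus held germline RNA, with lower sums of the mitotic, early meiotic, oocyte and early embryo markers and higher sums of the sperm markers in gld-2(RNAi) than in control RNAi. The part of these shifts in the rnr-2, mcm and pcn-1 values was not tested.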

How the data were processed

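The authors removed adapters, aligned reads with TopHat2 to the WS220 genome and counted unique reads per gene with featureCounts (Subread 1.4.0), and the deposited table holds these raw counts of 27 libraries. Gene names were taken from the deposited comparison tables and RefSeq; the fold changes, p-values and 72 per-sample columns of those tables, made with DESeq, were not used here. The raw counts were tested with edgeR 4.0.16 (TMM, robust quasi-likelihood, Benjamini-Hochberg adjustment over 7418 genes, R 4.3.3) on the libraries of each comparison, and P/NP changes by an interaction term in a fit of 12 libraries. DESeq2 1.42.0, other scaling and filters, 1 fit over 27 libraries, a replicate block and leaving out libraries were alternatives. No RNA spike-in was found among the features, so P and NP levels are relative to each fraction. CPM values were scaled over all 27 libraries and P/NP per gradient used a pseudocount of 0.01 CPM, so they differ slightly from fitted values. Exon lengths are from a WBcel235 annotation, in which exons of 6 of the 9 genes share 4 to 73 bases with a gene on the opposite strand, where reads are uncertain. Whether the counting used strand is not settled by the sources used here.

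Same-numbered libraries deviated together (correlation of deviations 0.474 to 0.899, each over 0.1). Libraries of different number ran from -0.878 to 0.864, which overlaps that range, so these values alone do not set the pairs. That the numbers of the labels pair the libraries is thus an assumption of the replicate block and of the P/NP ratios per gradient. The members, gene lists and tests were chosen with earlier results of these data known. The rule for named genes was all 9 members, other replication genes past both thresholds in input (up to 6) or the 3 largest elsewhere, and the 5 genes of most similar course. The fits of gld-2(RNAi) input and of the P/NP change in gld-4(RNAi) were tested on simulated counts. These held no replicate effect or pairing, and the planted changes were larger than 2-fold. They therefore do not test the use of the block or smaller differences. Intervals and p-values cover only the spread between libraries.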

Additional observations from a re-analysis of the deposited data

Results flagged for a closer look

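For 4 genes, every library pair of the same replicate number moved one way in one fraction and the opposite way in another, a difference that was not tested as such for input against P. In gld-4(RNAi) minus control, pcn-1 averaged 0.65 in input and 0.60 in NP, against -0.21 in P, on the log2 scale over 3 pairs. For mcm-6 in gld-4(RNAi), the mean was 0.34 in input and 0.13 in NP, against -0.37 in P, and for mcm-3 it was 0.17 in input, against -0.46 in P. For mcm-5 in gld-2(RNAi), the mean was 0.26 in NP, against -0.26 in P. The rule uses the sign alone, with no limit on size. In gld-4(RNAi), replicate 1 differed by -0.03 for pcn-1 in P, 0.03 for mcm-6 in NP and 0.06 for mcm-3 in input. The remaining pairs of these differed by more. How many of all genes meet the rule was not counted, so whether 4 is an unusual number was not tested. Between NP and P the fitted change of P/NP gives a test: it was -0.84 for pcn-1 (adjusted p = 0.15, and 0.0431 with the replicate block), -0.50 for mcm-6 (0.261) and -0.55 for mcm-5 in gld-2(RNAi) (0.132, and 0.0347 with the block). With 3 libraries a group, single libraries were not tested as outliers.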

How the results depend on the processing

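Of 108 fold changes of the 9 genes over 12 comparisons, 8 passed both thresholds, and none of these 8 changed sign under any alternative; 31 others did in at least 1, all at most 0.40 in size on the log2 scale, 4 of which are printed above. In gld-2(RNAi) input, rnr-1 was -0.02 with library size alone and -0.05 to 0.37 over fits without 1 replicate. In gld-4(RNAi) input, rnr-2 was -0.19 to 0.17 without 1 replicate and 0.13 without replicate 1 of any group. In gld-4(RNAi) NP, mcm-6 was -0.02 with every gene of at least 1 count. The P/NP change of rnr-2 in gld-2(RNAi) was 0.03 with DESeq2, 0.07 with every gene of at least 1 count, 0.15 with a mean of at least 10 counts, -0.11 to 0.13 without 1 replicate, and 0.02 without replicate 1 of any group, a choice made after seeing the data. In gld-4(RNAi) P, 1 member (mcm-5, -1.07) was called with every gene of at least 1 count and with a mean of at least 10 counts, where 0 was called otherwise. Under these 2 settings 20 of 20320 and 28 of 12173 genes were called lower. Without 1 replicate, members called ranged from 1 to 2 for gld-2(RNAi) over gld-4(RNAi) in input, and from 0 to 1 for P over NP in gld-2(RNAi) and in gld-4(RNAi). In these 3 comparisons, 999 to 1230, 759 to 980 and 744 to 1074 of 7418 genes were called lower in those fits. With pcn-1 in place of rnr-1 as denominator, the log2 difference of the rnr-2 ratio was -1.54 in input, -1.75 in NP and -1.32 in P for gld-2(RNAi), and -0.73, -1.01 and -0.44 for gld-4(RNAi). The replicate block changed no call at both thresholds. Depth limits no member, while 3 libraries a group limit all p-values.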
